A study of Mus musculus with 6 samples.

Results

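The genes described here are 10 members of the insulin-like growth factor (IGF) and insulin system in TM3 cells: the ligand Igf1, the receptors Igf1r and Insr, the adaptor Irs1, and the 6 binding proteins Igfbp2, Igfbp3, Igfbp4, Igfbp5, Igfbp6 and Igfbp7. They were chosen by name, through the transcript that each array probe is annotated to, a rule that uses no measured value, though the set was put together with earlier results of these data known. All 10 were found, among 23462 genes named on the array, with 13 of its 56605 probes. TM3 is a mouse line derived from testicular Leydig cells, the cells that make testosterone. The PNP cells were exposed for 24 h to 10 µM of 4-nitrophenol (PNP, nPNP in the labels), a breakdown product of the pesticide parathion. The control cells had 0 µM for the same 24 h. Each group held 3 samples, and each sample had its own 1-channel Agilent array. All samples are of 1 cell line, and nothing in the labels places them in separate cultures. The p-values therefore measure how far these samples spread, and that spread may be technical.

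IGF1 is a secreted peptide that binds the IGF1 receptor, a tyrosine kinase at the cell surface. The insulin receptor is its close relative. Both receptors phosphorylate the docking protein IRS1, which passes the signal on to PI3 kinase and AKT and to the RAS and MAP kinase branch. The IGF-binding proteins hold IGFs outside the cell and either shield them from the receptor or carry them to it. IGFBP7 differs from the others in binding IGFs only weakly. In the testis, Leydig cells make IGF1 and respond to it, and the insulin and IGF1 receptors take part in testis development and in steroid production.

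Values below are scaled log2 signals: the log2 of a spot's processed brightness minus the 75th percentile of that array, so that 0 is the 75th percentile and 1 unit is 2-fold. A signal depends on the probe as well as on the RNA, so signals of different probes are not ordered here. Of the 10 genes, 9 had a probe well above background on all 6 arrays, the scanner software's mark for a spot that stands clear of its surroundings. With limma, a linear model fitted to all 13138 genes that could be tested, 8 of the 10 members had a test. Of these 8, 0 had an adjusted p below 0.05, where 0% of all tested genes did (0 of 13138). At an unadjusted p below 0.05 there were 2 members of 8, Igfbp2 and Insr, against 6.52% of all genes. Both had higher signal in PNP cells, as 5.02% of all genes did at that p. The 95% interval of the difference excluded a change of 2-fold in either direction for all 8, and a change of 1.5-fold for 6 of them, all but Igfbp2 and Insr. These intervals are of each gene's brightest tested probe in the fit without covariates, and that of Igfbp4 rests on 2 PNP arrays. In RNA from whole cultures, a change in the share of cells that express a gene and a change per cell cannot be told apart.

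**Figure D1:**
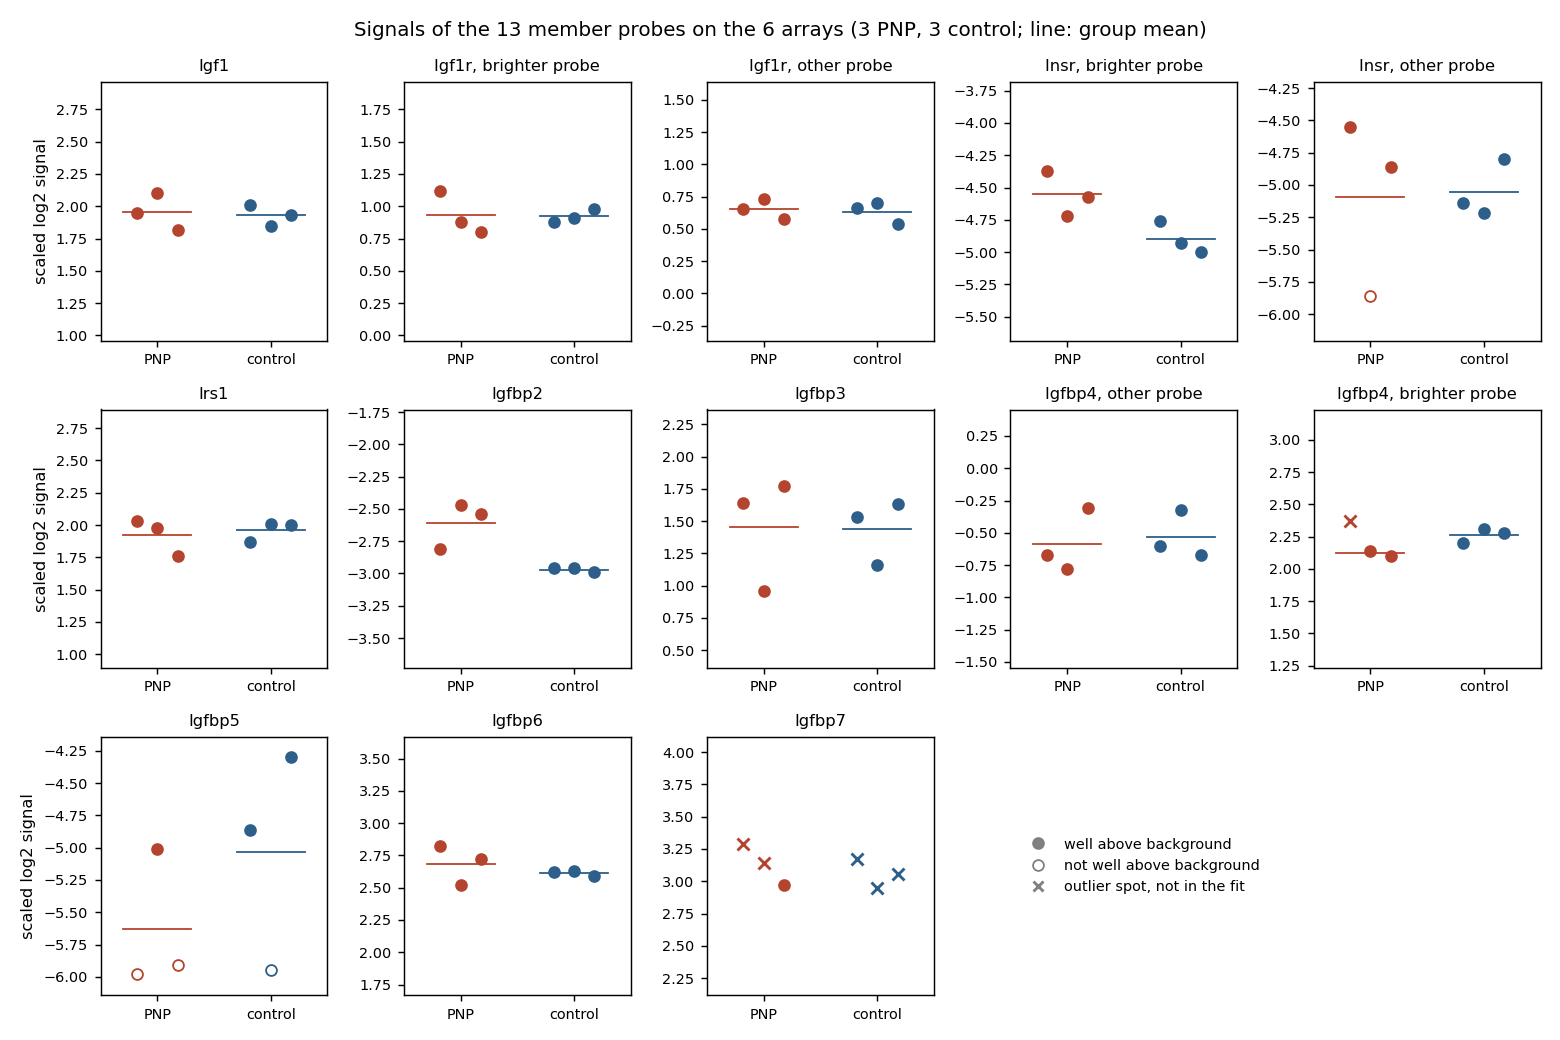
Scaled log2 signal (vertical axis, log2 units above or below the array's 75th percentile) of each of the 13 member probes, with the 3 PNP arrays left and the 3 control arrays right in every panel and a line at the mean of the values in use. Filled points were well above background, open points were not, and crosses are spots marked as outliers. In the Igfbp2 and the brighter Insr panel all 3 PNP points lie above the control points, and in the Igf1, Igf1r, Irs1, Igfbp3 and Igfbp6 panels the groups overlap.

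The arrays differed in measures that went with the groups. Spots marked as outliers made up 12.3% ± 0.814 of those on PNP arrays and 7.75% ± 1.27 on control arrays (SD, n = 3 each), with exact two-sided permutation p = 0.1, the smallest that 3 against 3 can give. The 75th percentile used for scaling was 12.137 to 12.368 in log2 brightness on PNP arrays and 12.389 to 12.501 on control arrays. These ranges did not overlap either (exact two-sided permutation p = 0.1). All 6 arrays were on 1 slide, but PNP replicates 2 and 3 stood in its second row, while PNP replicate 1 and all controls stood in the first. Slide columns were not balanced either: PNP replicates 1, 2 and 3 stood in columns 4, 1 and 2, and control replicates in columns 1, 2 and 3. The part of these measures in the results below was not tested beyond the fits with slide row or slide column as a term. As a check of the label, 5 of 11 Leydig cell markers on the array had a probe well above background on all 3 PNP arrays and 5 on all 3 control arrays. Among them were Star and Nr5a1, while Cyp11a1, Lhcgr, Hsd3b6 and Hsd17b3 were so on 0 of the 6 arrays and Hsd3b1 on 1. No probe was named Insl3 here. In both groups alike, the counts were 7 of 11 for Sertoli cell markers, 7 of 10 for macrophage and leukocyte markers and 9 of 10 for peritubular myoid and fibroblast markers. Endothelial markers gave 1 of 6 in PNP cells and 0 of 6 in control cells, and germ cell markers 3 of 8 in PNP cells and 4 of 8 in control cells.

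The ligand Igf1 was well above background on all 6 arrays. Its signals were 1.95, 2.10 and 1.82 in PNP cells, against 2.01, 1.85 and 1.93 in control cells. The PNP values spread on both sides of the controls. The difference, PNP minus control, was 0.02 (SE 0.11, 95% interval -0.22 to 0.27, adjusted p = 0.984), which leaves room for a change between 0.856-fold and 1.20-fold. Its 1 probe does not tell the many Igf1 transcripts apart.

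The receptor Igf1r was read by 2 probes, both well above background on all arrays. The brighter one gave 1.12, 0.88 and 0.80 in PNP cells, against 0.88, 0.91 and 0.98 in control cells, and the difference was 0.01 (SE 0.11, interval -0.24 to 0.26, adjusted p = 0.997). PNP replicate 1 was the highest of the 6 and PNP replicate 3 the lowest, so the PNP cells enclosed the controls. The other probe gave 0.65, 0.73 and 0.58 in PNP cells, against 0.66, 0.70 and 0.54 in control cells. Its difference was 0.02 (SE 0.10), with PNP replicate 2 highest in place of replicate 1.

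The insulin receptor gene Insr was read by 2 probes, both dim. Its brighter probe had signals of -4.37, -4.72 and -4.57 in PNP cells, against -4.76, -4.93 and -5.00 in control cells. All PNP values lay above all controls, by 0.05 between the nearest of each group. The difference was 0.35, or 1.27-fold (SE 0.12, interval 0.07 to 0.63, unadjusted p = 0.0204, adjusted p = 0.740). The other Insr probe had -4.55, -5.86 and -4.86 in PNP cells, against -5.14, -5.22 and -4.80 in control cells. Its groups overlapped, the lowest value, on PNP replicate 2, was not well above background, and the difference was -0.04 (SE 0.31, interval -0.74 to 0.66, both from the fit of all 27222 tested probes). That interval also holds the 0.35 of the brighter probe, so the 2 probes were not shown to differ. When both probes were averaged, the Insr difference was 0.15 (unadjusted p = 0.449, adjusted p = 0.940). With slide row as a term, which sets PNP replicate 1 against the controls beside it, the brighter probe's difference was 0.53 (adjusted p = 0.546).

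The adaptor Irs1, the docking protein of both receptors, had signals of 2.03, 1.98 and 1.76 in PNP cells, against 1.87, 2.01 and 2.00 in control cells. PNP replicate 3 was the lowest of the 6 and PNP replicate 1 the highest. The difference was -0.03 (SE 0.11, interval -0.28 to 0.21, adjusted p = 0.976).

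Of the 6 binding proteins, 5 were well above background on all 6 arrays, all but Igfbp5. Igfbp2, which is abundant in many fetal tissues and also binds integrins, had the smallest p of the members. Its signals were -2.81, -2.47 and -2.54 in PNP cells, against -2.96, -2.96 and -2.99 in control cells. The controls lay within 0.03 of each other, and the PNP cells lay above them, with PNP replicate 1 nearest. The difference was 0.36, or 1.29-fold (SE 0.11, interval 0.11 to 0.62, unadjusted p = 0.0108, adjusted p = 0.740), so it is a value without a call. It ran from 0.29 to 0.46 when 1 array was left out. With slide row as a term it was 0.16 (unadjusted p = 0.188, adjusted p = 0.592), a value that rests on PNP replicate 1 alone against the controls in its row. With odd against even slide columns as a term the Igfbp2 difference was 0.40 (adjusted p = 0.505).

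Igfbp3, the main carrier of IGFs in the circulation, had signals of 1.64, 0.96 and 1.77 in PNP cells, against 1.53, 1.16 and 1.63 in control cells. In each group 1 array, replicate 2, stood well below the other pair. The difference was 0.01 (SE 0.22, interval -0.49 to 0.52, adjusted p = 0.997), the widest interval of the 8 tested members. Leaving out single arrays moved it from -0.14, without PNP replicate 3, to 0.26, without PNP replicate 2.

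Igfbp4, which mostly restrains IGF action and is cut by the protease pappalysin, was read by 2 probes. The brighter gave 2.14 and 2.10 on PNP replicates 2 and 3, against 2.20, 2.31 and 2.28 in control cells, and PNP replicate 1 was not used because its spot was marked as an outlier. On the 2 PNP arrays in use the values lay below all controls, and the difference was -0.14 (SE 0.10, interval -0.39 to 0.10, adjusted p = 0.902). The marked spot itself read 2.37, above every control, and with it kept the difference was -0.06. It was -0.03 with normexp background correction and -0.23 with arrays centred on their median. The other probe gave -0.67, -0.78 and -0.31 in PNP cells, against -0.60, -0.32 and -0.67 in control cells, with a difference of -0.05 (SE 0.15) and overlapping groups.

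Igfbp6, which prefers IGF2 to IGF1, had signals of 2.82, 2.52 and 2.72 in PNP cells, against 2.62, 2.63 and 2.59 in control cells. The controls lay within 0.05 of each other, inside the range of the PNP cells. The difference was 0.07 (SE 0.10, interval -0.17 to 0.31, adjusted p = 0.951).

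The other 2 binding proteins had no test. Igfbp5, a binding protein that also attaches to the extracellular matrix, was well above background on 3 of 6 arrays, namely PNP replicate 2 and control replicates 1 and 3. Its signals were -5.98, -5.01 and -5.91 in PNP cells, against -4.86, -5.95 and -4.30 in control cells. Fitted without the filter on dim probes and with all spots kept, a setting chosen after the data were seen, its difference was -0.59 (SE 0.47, interval -1.72 to 0.54, unadjusted p = 0.248). That interval admits a change of 2-fold and more. Igfbp7, a secreted protein of the extracellular matrix, was well above background on all arrays, but its spot was marked as an outlier on 5 of them. With the marked spots kept, its signals were 3.29, 3.14 and 2.97 in PNP cells, against 3.17, 2.95 and 3.06 in control cells. The groups overlapped, and the difference under the same setting was 0.08 (SE 0.12, interval -0.21 to 0.36, unadjusted p = 0.541).

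**Figure D2:**
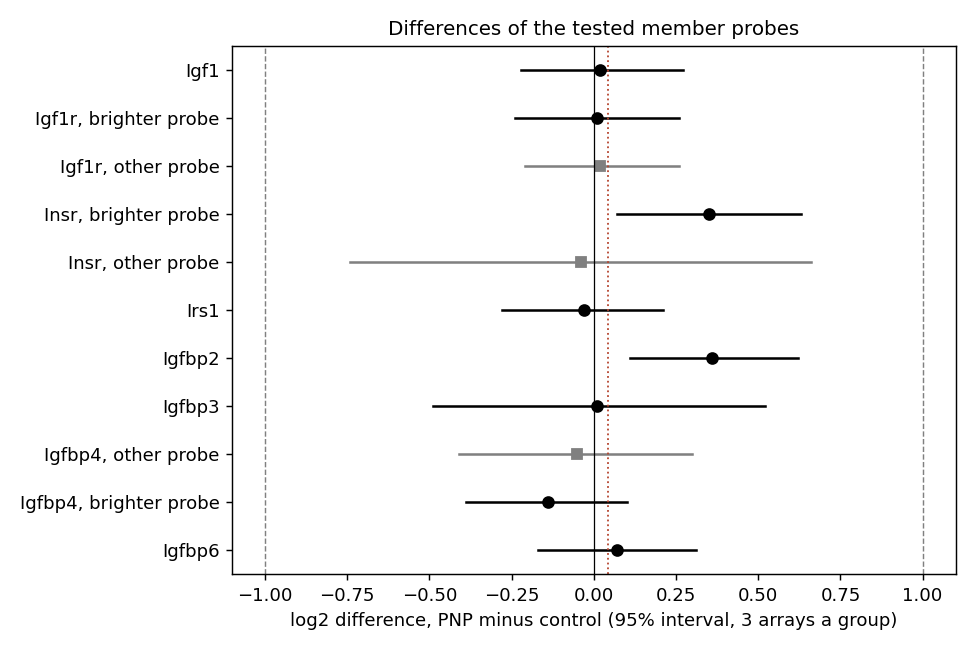
Log2 difference, PNP minus control (horizontal axis), with its 95% interval for the 11 member probes that were tested, from 3 arrays a group (2 PNP arrays for the brighter Igfbp4 probe). Black circles stand for their gene, grey squares are the second probe of a gene, the red dotted line is the median of all tested genes (0.043), and dashed lines mark a change of 2-fold. The intervals of Igfbp2 (0.11 to 0.62) and of the brighter Insr probe (0.07 to 0.63) do not hold 0, and all others do.

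Among the 8 tested members, 6 had a positive difference and 2 a negative one, with a median of 0.018. Over all 13138 genes 63.0% were positive and the median was 0.043. The groups did not overlap for 3 members, Insr and Igfbp2 with PNP above and Igfbp4 with PNP below, against 13.4% of all genes (9.66% with PNP above and 3.75% below). The Igfbp4 separation rests on 2 PNP arrays and is absent when the marked spot is kept. Small differences changed sign with the scaling: Igf1 was -0.04 and Igf1r -0.05 with arrays centred on their median, and Igf1 and Igfbp6 were both -0.01 after quantile normalization.

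Several members lie beside relatives. In the RefSeq annotation (assembly GRCm38.p6) Igfbp2 and Igfbp5 are neighbouring protein-coding genes on chromosome 1, and Igfbp1 and Igfbp3 are neighbours on chromosome 11. In each pair 1 gene was well above background on all 6 arrays, Igfbp2 and Igfbp3. Igfbp5 was so on 3 arrays and Igfbp1 on 0.

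Promoter windows in the RefSeq table run from 250 bases before to 50 after a transcript's start, and 9 of the 10 members have one (10 windows, 2 of them of Igfbp2), all but Insr. The arrays did not measure promoters, so these sequences are context and bear on no difference above. GC content had a median of 69.2% over the member windows, against 52.7% over 32841 windows of the same length. Both strands were searched for 3 motifs. The GC box GGGCGG, bound by SP1, was in the windows of 4 members (Igf1r, Irs1, Igfbp2 and Igfbp7), where 35.7% of all windows hold it. The TATA box TATAAA was in 2 (Igfbp4 and Igfbp6), where 13.6% of all windows hold it. In the Igfbp6 window these letters are on the opposite strand, at position -148 from the start. The FOXO site GTAAACA, read by factors that AKT shuts out of the nucleus, was in 0 of 10, where 3.65% of all windows hold it. No member window held more than 1 kind of these motifs, though a window could hold the GC box more than once. The second Igfbp2 window held none of the motifs (GC 57.3%). The Igfbp2 windows were not matched to the transcript of the probe. Printed are the windows of the ligand Igf1, which holds none of the motifs (GC 52.3%, chr10:87860861-87861160, plus strand), of Igfbp2, the member of smallest p, with 3 GC boxes (GC 67.0%, chr1:72824230-72824529, plus strand), and of Igfbp4, whose TATA box begins at position -28 from the start (GC 71.3%, chr11:99040994-99041293, plus strand). Coordinates are of GRCm38.p6, sequences run 5′ to 3′, and capitals mark the motifs.
Igf1: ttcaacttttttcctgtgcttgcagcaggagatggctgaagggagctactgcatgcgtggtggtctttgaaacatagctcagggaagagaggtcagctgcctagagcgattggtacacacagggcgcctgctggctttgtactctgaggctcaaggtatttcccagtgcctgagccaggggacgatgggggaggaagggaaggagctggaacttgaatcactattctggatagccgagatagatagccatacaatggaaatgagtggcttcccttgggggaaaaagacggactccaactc
Igfbp2: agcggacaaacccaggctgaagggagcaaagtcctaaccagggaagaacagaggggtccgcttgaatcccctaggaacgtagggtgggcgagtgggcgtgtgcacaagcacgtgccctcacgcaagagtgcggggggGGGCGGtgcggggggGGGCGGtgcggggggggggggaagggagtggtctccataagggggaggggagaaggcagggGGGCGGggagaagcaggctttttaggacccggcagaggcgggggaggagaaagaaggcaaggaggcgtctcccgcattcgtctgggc
Igfbp4: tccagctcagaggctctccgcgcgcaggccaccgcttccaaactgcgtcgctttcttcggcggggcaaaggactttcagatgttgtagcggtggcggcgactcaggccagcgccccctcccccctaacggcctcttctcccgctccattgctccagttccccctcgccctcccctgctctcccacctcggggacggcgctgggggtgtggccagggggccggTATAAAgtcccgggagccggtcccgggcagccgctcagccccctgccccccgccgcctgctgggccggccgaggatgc

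The rest of the pathway was read from 6 lists of 99 genes beside the members, of which 71 were tested. With limma, 0 of the 71 had an adjusted p below 0.05, and 2 (2.82%) had an unadjusted p below 0.05, both with higher signal in PNP cells, against 6.52% of all genes. The median difference was 0.036, and the groups did not overlap for 8 genes (11.3%), against 13.4% of all genes.

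Other ligands, receptors and carriers had 8 tested genes of 12, with 0 called, 5 positive and 3 negative differences and a median of 0.05. The insulin gene Ins2 gave -3.07, -3.10 and -3.03 in PNP cells, against -3.16, -3.48 and -3.39 in control cells, all PNP values above all controls. Its difference was 0.27 (SE 0.11, unadjusted p = 0.0354, adjusted p = 0.740). Insrr, an orphan relative of the insulin receptor, differed by 0.27 (SE 0.15, adjusted p = 0.846) with overlapping groups. The remaining untested carriers Igfbp1, Igfbpl1 and Igfals and the proteoglycan gene Esm1 were well above background on 0 of the 6 arrays.

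The following 4 genes were named after their values were seen. Igf2, the second IGF ligand, had -3.80, -3.37 and -3.72 in PNP cells, against -3.30, -3.28 and -3.67 in control cells (difference -0.22, SE 0.15, adjusted p = 0.900). Its clearance receptor Igf2r differed by -0.13 (SE 0.12, adjusted p = 0.938), and the groups overlapped for both. The insulin gene Ins1 had -5.04, -4.82 and -3.70 in PNP cells, against -5.08, -4.96 and -4.85 in control cells. Its difference of 0.44 (SE 0.31, adjusted p = 0.890) came largely from PNP replicate 3. Irs2, the second widely expressed IRS protein, differed by 0.06 (SE 0.11, adjusted p = 0.958).

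Proteases and inhibitors that act on the binding proteins had 7 tested genes of 12, with 0 called, 3 positive and 4 negative differences and a median of -0.04. The lysosomal protease gene Ctsd had 3.20, 2.92 and 3.07 in PNP cells, against 2.83 and 2.82 on control replicates 2 and 3, the 2 controls in use (difference 0.24, SE 0.12, adjusted p = 0.812). The metalloprotease gene Adam28 differed by 0.13 (SE 0.14, adjusted p = 0.946). Pappa, the pappalysin that cuts IGFBP4, was well above background on 0 of the 6 arrays.

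Adaptors and feedback regulators had 18 tested genes of 25, with 0 called, 10 positive and 8 negative differences and a median of 0.01. Irs3, an IRS family adaptor, had -2.31, -2.32 and -1.38 in PNP cells, against -2.46, -2.57 and -2.73 in control cells. PNP replicate 3 stood far above the other PNP arrays, and the difference was 0.58 (SE 0.24, unadjusted p = 0.0408, adjusted p = 0.740). Grb14, an adaptor that inhibits the insulin receptor, differed by -0.21 (SE 0.15, adjusted p = 0.892).

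The growth hormone and STAT5 axis, which drives Igf1 transcription in liver, had 5 tested genes of 6, with 0 called, 5 positive differences and a median of 0.09. Stat5a differed by 0.20 (SE 0.11, adjusted p = 0.820), while its second probe stood at -0.07 (SE 0.13). The kinase gene Jak2 differed by 0.11 (SE 0.20, adjusted p = 0.958), while its second probe stood at -0.31 (SE 0.35).

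Downstream of IRS1, the PI3 kinase, AKT, mTOR and FOXO branch had 24 tested genes of 32, with 0 called, 17 positive and 7 negative differences and a median of 0.04. The kinase gene Akt1 had 1.61, 1.64 and 1.42 in PNP cells, against 1.74, 1.69 and 1.78 in control cells, all PNP values below all controls. The difference was -0.18 (SE 0.10, adjusted p = 0.845), and -0.01 (SE 0.17) on its second probe. Pik3cb, a catalytic subunit of PI3 kinase, differed by -0.22 (SE 0.13, adjusted p = 0.870) on 2 PNP arrays. The RAS and MAP kinase branch had 11 tested genes of 15, with 0 called, 6 positive and 5 negative differences and a median of 0.06. Elk1, a transcription factor that MAP kinases activate, differed by 0.18 (SE 0.11, adjusted p = 0.869), and its second probe stood at 0.21 (SE 0.11). The kinase gene Map2k2 differed by -0.14 (SE 0.14, adjusted p = 0.944). The Map2k2 value and the first Elk1 value rest on 2 PNP arrays each.

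**Figure D3:**
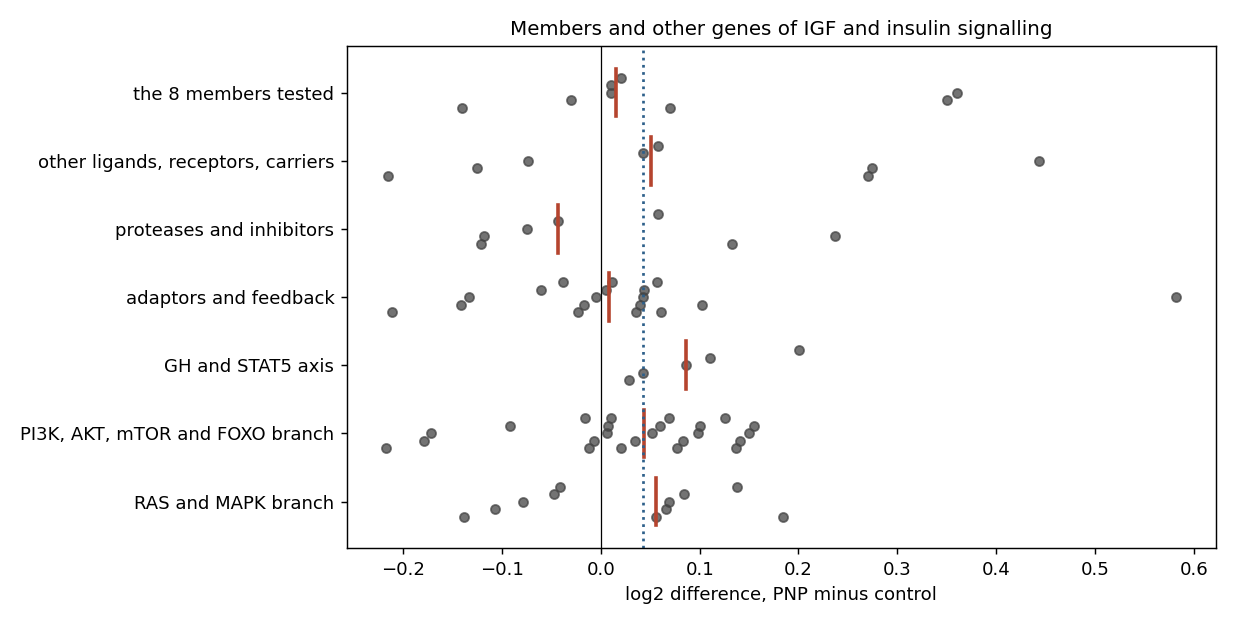
Log2 difference, PNP minus control (horizontal axis), of each tested gene, with a row for the 8 tested members and for each of the 6 pathway lists. Red bars are list medians and the blue dotted line is the median of all tested genes (0.043); list medians lie between -0.04 and 0.09, and the highest single value is that of Irs3 (0.58).

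The genes whose signals ran most like those of Igf1 over the 6 arrays, among 10695 genes well above background on all of them, were Nasp (Pearson r = 0.992), Cactin (0.992) and Olfr796 (0.990). For Igf1r they were Whrn (0.997), Rabgef1 (0.992) and Aaas (0.987). These are descriptions over 6 arrays that share a slide and a scaling, picked as the highest of many.

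**Figure D4:**
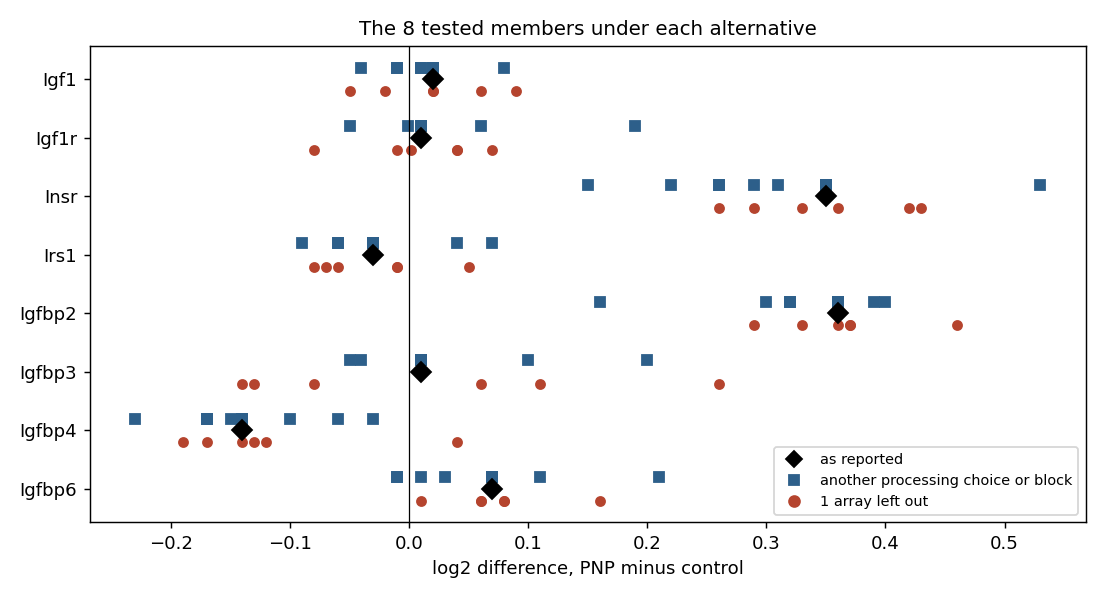
Log2 difference, PNP minus control (horizontal axis), of the 8 tested members as reported (black diamonds), under each other processing choice or block (blue squares) and with each array left out (red circles). For Igfbp4 slide row could not be fitted, since its PNP arrays in use stood in the second row and all controls in the first. Its square for that block repeats the reported value. Igfbp2 stayed between 0.16 and 0.46 and Insr between 0.15 and 0.53, while Igf1, Igf1r, Irs1, Igfbp3, Igfbp4 and Igfbp6 had values on both sides of 0.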

How the data were processed

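Total RNA of 6 TM3 samples was amplified, labelled with 1 dye and hybridised to Agilent mouse arrays, per the labels' protocols, and samples were grouped by the dose in the labels. The deposited scanner files hold intensity values made with Agilent Feature Extraction 11.5.1.1, per the file headers (10.7 per the submitters' processing notes). Background was subtracted and low values replaced by a surrogate, which understates differences of dim spots. The authors also deposited normalized log2 values, with a median of 8.27 in every column. Set against the scanner values, each column matched its own array (r at least 0.9996), which gives its log2 scale, its direction and that it is uncentred. Their normalization method is not given in these sources.

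Processed signals were taken as log2 and the 75th percentile of an array's non-control spots was subtracted. Outlier spots were left out, and spots of 1 probe averaged. A probe was tested if well above background on all 3 arrays of a group with at least 2 values per group. Probes were named by unversioned RefSeq accession (33767 of 56605). Each gene stood by its brightest tested probe. R 4.3.3 and limma 3.58.1 (lmFit, eBayes, two-sided, no covariates, Benjamini-Hochberg over 13138 genes, threshold 0.05) compared PNP with control. The procedure was also run on simulated data, which held independent noise per gene and no array or slide effects. Precision is limited by the number of arrays, with a median 95% interval per gene of ± 0.28. Alternatives were scaling, background correction, deposited values, outlier spots, filters, probe choice, blocks and leaving out each array. The normexp correction used median signals, since the files hold no mean signal. Named are all members, the 2 genes of smallest p per pathway list, and the 3 genes most correlated with Igf1 and Igf1r. Members and lists were chosen with earlier results of these data known.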

Additional observations from a re-analysis of the deposited data

How the results depend on the processing

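Members past the adjusted threshold numbered 0 under every alternative. Of 136 pairs of a tested member and an alternative, 116 kept the sign. Many could not turn: both other filters repeated the reported differences, as did averaging for members of 1 probe. Kept outlier spots and the replicate block moved Igfbp4 alone. The sign was kept in all 17 alternatives for Igfbp2 and for Insr. For these 2, all PNP values lay above all controls, so leaving out an array could not turn the sign either. In the other members the sign turned, with no cause tested, as follows. With arrays centred on the median, Igf1 was -0.04, Igf1r -0.05 and Igfbp3 -0.05. Igf1 and Igfbp6 were both -0.01 with quantile normalization and in the deposited values, nearly a repeat of it. With slide column as a block Igf1r was -0.00074 and Igfbp3 -0.04. Irs1 was 0.07 with slide row as a block and 0.04 with normexp, an alternative added after the data were seen. With 1 array left out, Igf1 ran from -0.05 to 0.09, Igf1r from -0.08 to 0.07, Irs1 from -0.08 to 0.05, Igfbp3 from -0.14 to 0.26 and Igfbp4 from -0.19 to 0.04. That 0.04, without PNP replicate 2, is of the other probe, since the brighter then has 1 PNP value.

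Members with an unadjusted p below 0.05 numbered 2 as reported. There was 1 with arrays centred on the median, 1 after quantile normalization, 1 in the authors' deposited values, 1 with a gene's probes averaged and 1 with slide row as a block, and from 1 to 2 with 1 array left out, the 1 without PNP replicate 1 or without control replicate 3. The single member was Igfbp2 in each of these but slide row, where it was Insr. Without control replicate 2 the 2 were Igfbp2 and Igfbp5. Igfbp5 passed the filter only through the higher group once its low control was dropped, so nothing is read from it. All genes past the adjusted threshold numbered 0 as reported, 1 with slide column as a block, and from 0 to 23 with 1 array left out. The 23 came without PNP replicate 1, and no member was among them. All genes with an unadjusted p below 0.05 numbered 856 as reported, 1303 with no filter on dim probes, where more genes were tested, and from 349 (without control replicate 3) to 1671 (without PNP replicate 2) with 1 array left out. Of those 856 genes 77.1% had higher signal in PNP cells, against 47.4% with median centring, 61.1% with quantile normalization and 61.6% in the deposited values. Over 11110 genes, same-numbered arrays deviated together in no pair (correlations -0.31, -0.22 and -0.03), and other pairs ran from -0.02 to 0.27. For Igfbp3, replicate 2 was low in both groups, and the SE was 0.119 with the replicate block, against 0.22 as reported. The reported fit did not use replicate numbers as pairs. The labels do not say whether samples were paired, and so few arrays cannot settle it. With the replicate block the Igfbp2 difference was 0.36 (adjusted p = 0.984), 2 members had an unadjusted p below 0.05 and 0 genes passed.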
